A study of Xenopus laevis with 27 samples.

Results

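Stanniocalcins and parathyroid hormone related protein are secreted calcium-regulating hormones, and their genes were followed here in regenerating tails of the frog Xenopus laevis. Genes were chosen by name: every row of the count table whose symbol, without its final .L or .S, is stc1, stc2, pthlh, pth1r or casr. That gave 9 of 29776 genes, namely stc1.L, stc1.S, stc2.L, stc2.S, pthlh.L, pthlh.S, pth1r.L, pth1r.S and casr.S. The genome of this frog was duplicated long ago, so many genes come as a pair, with .L for the copy of the long subgenome and .S for that of the short one. The group was proposed because stc1.L and pthlh.S had more reads 3 and 6 hours and 3 days after amputation than directly after it, so the levels of these genes are described and not tested.

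Bulk RNA sequencing of amputated tails was done at 9 times, written as minutes (mpa), hours (hpa) or days (dpa) post amputation: 0, 30, 60 and 90 mpa, 3 and 6 hpa, and 1, 3 and 7 dpa. Each time had 3 libraries, named A to C, and each library held pooled RNA of 20 embryos at a stage the labels call regenerative. All groups were amputated, so 0 mpa is the baseline and not an unwounded control, and no strain, genotype or drug treatment is given in the labels. The labels describe biological triplicates but name no separate clutches, and each p-value therefore measures only the spread among these libraries, pooled over all times in 1 fit, which may be technical.

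Stanniocalcin was first known from the corpuscles of Stannius of bony fish, where it lowers calcium uptake, and mammals make stanniocalcins in many tissues as local signals. Parathyroid hormone related protein (PTHrP, encoded by pthlh) acts on the receptor it shares with parathyroid hormone, PTH1R. In the growth plate of mammals it holds chondrocytes in their dividing state in a feedback loop with Indian hedgehog. The calcium-sensing receptor CASR lets parathyroid cells read extracellular calcium.

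Of the 27 libraries, 24 held between 4186706 and 6332675 counts, 6 hpa C held 1207557, 90 mpa C held 367958 and 7 dpa C held 19187. In 7 dpa C 1 read corresponded to 17.34 CPM, counts scaled to a library of 1000000, so a 0 or a single read there says little about these genes, and means without it are given beside the 7 dpa levels of stc1.L, stc2.L and pthlh.S; no call at 7 dpa named here was lost without it. Libraries 1 dpa B and 3 dpa B were deep but of low complexity, with 16267 and 18672 genes found in 1000000 counts. The tail label was checked against marker genes, and all 15 skeletal muscle rows had reads at 0 mpa, summing to between 106000 and 181000 CPM. The same markers summed to 17100 to 31400 CPM at 3 dpa and 4720 to 7540 CPM at 7 dpa, and in bulk samples fewer cells of a type and less RNA per cell cannot be told apart. Among parathyroid and kidney markers, gcm2.L, a parathyroid regulator in vertebrates, had 29 reads in all 27 libraries together, none of them at 0 mpa.

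The stanniocalcin gene stc1.L was high at 3 hpa, 6 hpa, 3 dpa and 7 dpa, with no read in any of the 3 libraries at 0 mpa. At 30 mpa it had 2 reads and at 60 mpa 4 reads, all in library C of each time. At 90 mpa it stood at 8.23 CPM in library A, 1.16 in B and 0 in C, the shallow one. These early values were uneven, with 37 of the 43 reads at 90 mpa in library A; without A the mean at 90 mpa was 0.581 CPM, and with it 3.13 ± 4.45 CPM (SD, n = 3).

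At 3 hpa stc1.L stood at 22.4, 19.9 and 14.9 CPM in libraries A, B and C. The values at 6 hpa were 18.5, 8.39 and 10.9 CPM. At 1 dpa they were 5.17, 0 and 1.19 CPM. Every 3 hpa and 6 hpa library was above every library of the earlier times, counting the 0 of the shallow 90 mpa C. Every 1 dpa library was below every one of 3 and 6 hpa. The 0 at 1 dpa came from library B, the one of low complexity, and 31 of the 39 reads lay in library A; the 1 dpa mean was 3.18 CPM without B and 0.595 CPM without A, beside 2.12 ± 2.71 CPM with all 3.

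A further high level of stc1.L followed, at 51.8, 50.7 and 42.6 CPM in libraries A, B and C of 3 dpa. At 7 dpa it stood at 30.4 and 38.0 CPM in A and B, with no read in the shallow C. The 3 dpa libraries were the highest of the whole course and did not overlap with any other time. The mean at 3 dpa was 48.4 ± 5.05 CPM, that at 7 dpa 22.8 ± 20.1 CPM (SD, n = 3 each), and the mean at 7 dpa without C was 34.2 CPM.

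Set against a floor of 3 reads over the whole 0 mpa group, stc1.L was at least 18.3-fold higher at 90 mpa, at least 80.2-fold at 3 hpa, at least 59.0-fold at 6 hpa, at least 9.63-fold at 1 dpa, at least 207-fold at 3 dpa and at least 145-fold at 7 dpa. All these comparisons share the same 0 mpa libraries. In the order of its mean levels, 3 dpa stood apart from the next time and 6 hpa from 90 mpa, while 3 hpa and 6 hpa overlapped in their ranges. The range of 7 dpa overlapped with theirs through the 0 of the shallow library C alone, since 7 dpa A and B lay above every library of 3 and 6 hpa.

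**Figure D1:**
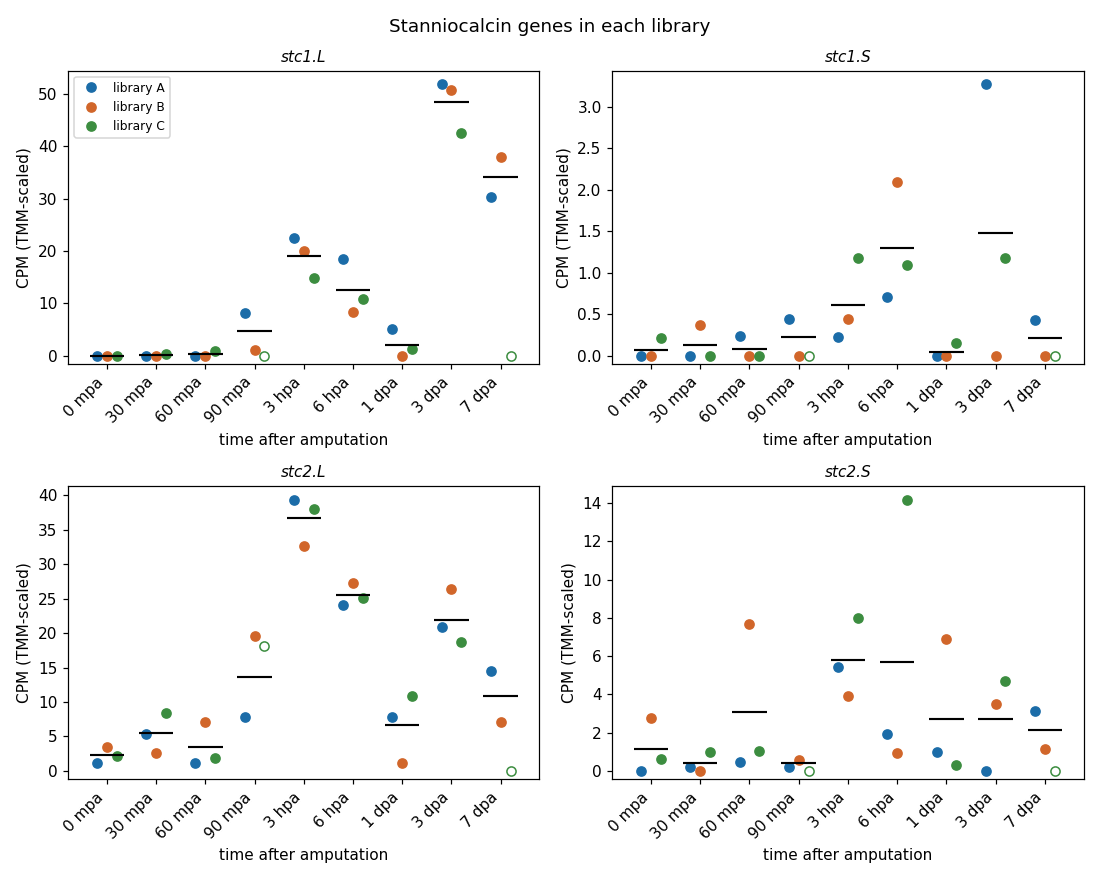
Levels of the stanniocalcin genes stc1.L, stc1.S, stc2.L and stc2.S in CPM (vertical axes, each panel with its own scale) at the 9 times (horizontal axes); points are libraries, open points are the shallow libraries 90 mpa C and 7 dpa C, and lines mark the mean of the other libraries. The 3 libraries of stc1.L at 3 dpa lie between 42.6 and 51.8 CPM and those of stc2.L at 3 hpa between 32.6 and 39.4 CPM.

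Its copy stc1.S was far scarcer, with 60 reads in all libraries together, and it failed the filter on low counts. Of the reads on both copies, 1790 of 1850, or 96.8%, lay on stc1.L, with an exact 95% interval of 95.8% to 97.5%. The share of stc1.L was 96.7% at 3 hpa and 96.8% at 3 dpa. At 6 hpa it was 91.5%, with an interval of 86.2% to 95.3%, and at 7 dpa 99.4%, with an interval of 98.2% to 99.9%. These are shares of reads and not corrected for length, and copies of similar sequence may exchange reads in counting.

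Reads of stc1.S numbered 9 at 3 hpa, 14 at 6 hpa and 27 at 3 dpa, against 1 at 0 mpa. At 3 dpa 21 of the 27 reads lay in library A and none in B. The ratio of scaled reads to 0 mpa was 8.15 at 3 hpa, with a counting interval of 1.13 to 357, and 20.7 at 3 dpa, with an interval of 3.41 to 847. The times with most stc1.S reads, 3 hpa, 6 hpa and 3 dpa, were also times of high stc1.L, but the numbers of reads were too small to give a fold with any precision.

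The other stanniocalcin, stc2.L, was not among the genes chosen for their levels. The group as a whole was still drawn up with earlier results of these data known. The level of stc2.L changed over the course. In the edgeR quasi-likelihood test over all 9 times together it had a Benjamini-Hochberg adjusted p of 3.22e-07, the 1 gene called of the 4 that could be tested here besides stc1.L and pthlh.S. A gene was called where this adjusted p was under 0.05, which held for 15.8% of all genes tested. Over the 8 later times set against 0 mpa, 5 of 32 gene and time pairs were called, all of them stc2.L, against 4.21% of all such pairs in the whole table. These 5 pairs share 1 gene and the same 0 mpa libraries, so they are not independent and their number is a description.

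Unlike stc1.L, stc2.L was detected in every library at 0 mpa, at 1.20, 3.53 and 2.16 CPM in A, B and C. At 30 mpa it stood at 5.33, 2.60 and 8.36 CPM. At 60 mpa the values were 1.21, 7.17 and 1.84 CPM. Both of these early groups overlapped with 0 mpa, and the difference of neither was called, with adjusted p-values of 1.00 each in edgeR's test, beside 0.377% of all genes called at 30 mpa and 1.15% at 60 mpa.

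By 90 mpa stc2.L stood at 7.78, 19.6 and 18.1 CPM, the last from 6 reads in the shallow library C. At 3 hpa it reached 39.4, 32.6 and 37.9 CPM. At 6 hpa it stood at 24.1, 27.3 and 25.1 CPM. All libraries of these 3 times were above all libraries of 0 mpa, and the 3 hpa libraries were the highest of the course.

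At 1 dpa stc2.L stood at 7.83, 1.11 and 10.9 CPM. At 3 dpa it stood at 20.9, 26.3 and 18.6 CPM, and at 7 dpa at 14.6 and 7.11 CPM in A and B and 0 in the shallow C. Levels at 1 dpa were thus below those at 6 hpa and 3 dpa in every library, and the same held for stc1.L. The low 1 dpa value was again that of library B.

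Against 0 mpa, stc2.L rose by a log2 fold change of 3.99 ± 0.64 (SE) at 3 hpa, with an adjusted p of 9.00e-06 in edgeR's test, beside 3.43% of all genes called at that time. At 6 hpa it rose by 3.46 ± 0.64 (adjusted p = 0.000142 in edgeR), where 3.66% of genes were called. At 3 dpa it rose by 3.25 ± 0.63 (adjusted p = 0.000182 in edgeR), where 9.22% of genes were called. The means were 36.6 ± 3.53, 25.5 ± 1.62 and 21.9 ± 3.96 CPM at 3 hpa, 6 hpa and 3 dpa, against 2.30 ± 1.17 CPM at 0 mpa (SD, n = 3 each).

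The calls for stc2.L at 90 mpa and 7 dpa, though not its direction, were lost when certain single libraries were left out. At 90 mpa it rose by 2.66 ± 0.65 (adjusted p = 0.00914 in edgeR; 3.38% of genes called), but leaving out 0 mpa A gave 2.35 (adjusted p = 0.0862) and leaving out 90 mpa B gave 2.22 (0.0891). With only the 6 libraries of these times the log2 fold change was 2.63 and the edgeR adjusted p 0.229. At 7 dpa it rose by 2.16 ± 0.65 (adjusted p = 0.0257 in edgeR; 7.94% of genes called), but the call was lost on leaving out 0 mpa A (1.86, adjusted p = 0.145), 0 mpa C (2.12, 0.0888) or 7 dpa A (1.53, 0.373). Without the shallow 7 dpa C the mean at 7 dpa was 10.8 CPM, and with it 7.22 ± 7.28 CPM.

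At 1 dpa the log2 fold change of stc2.L over 0 mpa was 1.54 ± 0.62, with an adjusted p of 0.159 in edgeR's test, where 4.56% of genes were called. Leaving out the low-complexity library 1 dpa B gave 2.03 ± 0.60 and an adjusted p of 0.0439 in the same test. No step from 1 time to the next was called for stc2.L, although the log2 difference of 1 dpa from 6 hpa was -1.92 ± 0.58 (unadjusted p = 0.00148 and adjusted p = 0.155 in edgeR). The difference of 3 dpa from 1 dpa was 1.71 ± 0.57, with an unadjusted p of 0.00384 and an adjusted p of 0.194 in edgeR. The dip of stc2.L at 1 dpa therefore did not pass the test after adjustment.

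Its copy stc2.S had 282 reads in all and its joint test gave an adjusted p of 0.302 in edgeR. At 3 hpa it stood at 5.43, 3.94 and 8.02 CPM, against 0, 2.77 and 0.648 CPM at 0 mpa. The 3 hpa libraries did not overlap with those of 0 mpa, yet the log2 fold change of 2.33 ± 1.30 had an adjusted p of 0.530 in edgeR. At 6 hpa 14.2 CPM stood in the shallower library C, against 1.93 and 0.932 CPM in A and B.

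The reads of stc2 were split more evenly than those of stc1. Over all libraries, 1730 of 2012 reads, or 86.0%, lay on stc2.L, with an exact interval of 84.4% to 87.5%. At 60 mpa the share was 53.2%, with an interval of 41.5% to 64.7%, and 29 of the 36 stc2.S reads at that time came from library B. The share was 67.4% at 0 mpa, 97.3% at 90 mpa, 86.2% at 3 hpa and 76.2% at 1 dpa, where 31 of 39 stc2.S reads again came from 1 library, B. With both copies summed, stc2 passed the joint test (adjusted p = 2.05e-06 in edgeR) and was higher at 90 mpa, 3 hpa, 6 hpa, 3 dpa and 7 dpa than at 0 mpa.

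**Figure D2:**
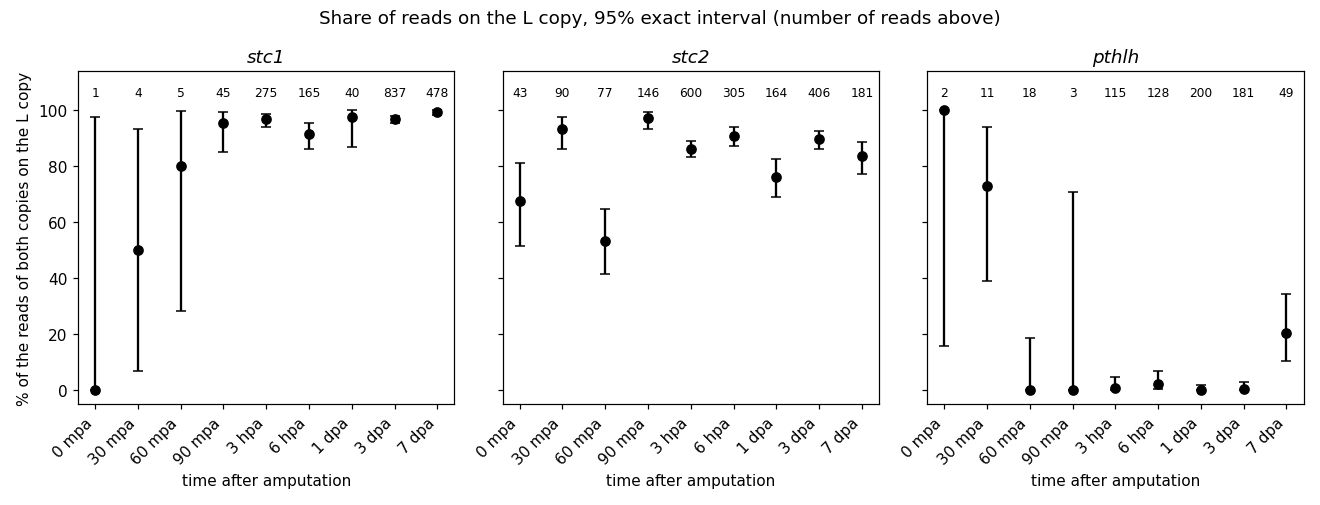
Share of reads on the .L copy in percent (vertical axis) for stc1, stc2 and pthlh at the 9 times (horizontal axes), with exact 95% intervals and the number of reads on both copies above each point. The share of stc1 is above 91% from 90 mpa on, and that of pthlh is under 3% from 3 hpa to 3 dpa.

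The PTHrP gene pthlh.S, like stc1.L, had no read at 0 mpa. Its reads numbered 3 at 30 mpa, 18 at 60 mpa and 3 at 90 mpa, with 14 of the 18 in library C and 4 in B. From 3 hpa on it was found in every library but 7 dpa C. The 60 mpa reads gave a level at least 5.98-fold above 0 mpa, but they were absent from library A.

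At 3 hpa pthlh.S stood at 8.59, 8.55 and 7.23 CPM in A, B and C. At 6 hpa it stood at 10.7, 13.7 and 5.46 CPM, the last from 5 reads. At 1 dpa it stood at 17.8, 1.11 and 13.1 CPM. All libraries of 3 and 6 hpa were above all earlier ones, counting the 0 of the shallow 90 mpa C. The highest value of the course was that of 1 dpa A, while the low 1 dpa value came from the low-complexity library B.

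At 3 dpa pthlh.S stood at 10.9, 14.4 and 7.06 CPM. At 7 dpa it stood at 3.14 and 2.47 CPM in A and B, with no read in C. Mean levels from 3 hpa to 3 dpa were close, at 8.12 ± 0.771, 9.98 ± 4.20, 10.7 ± 8.62 and 10.8 ± 3.69 CPM (SD, n = 3 each), and their ranges overlapped. Without library B the 1 dpa mean was 15.5 CPM. The 7 dpa mean was 1.87 ± 1.65 CPM, or 2.80 CPM without C. Libraries A and B of 7 dpa were below all libraries of 3 hpa, 6 hpa and 3 dpa, while the 0 of the shallow C says little.

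Against the floor at 0 mpa, pthlh.S was at least 34.4-fold higher at 3 hpa, at least 48.8-fold at 6 hpa, at least 49.4-fold at 1 dpa, at least 46.0-fold at 3 dpa and at least 11.9-fold at 7 dpa. The courses of stc1.L and pthlh.S were set side by side at 1 and 7 dpa. All 1 dpa libraries of stc1.L, at most 5.17 CPM, lay below all of 6 hpa, at least 8.39 CPM. For pthlh.S, 1 dpa A and C stood at 17.8 and 13.1 CPM and B at 1.11 CPM, against 5.46 to 13.7 CPM at 6 hpa, so these groups overlapped. At 7 dpa stc1.L stayed at 30.4 and 38.0 CPM in A and B, while pthlh.S was below its 3 dpa range in both. A difference between the courses was not tested.

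**Figure D3:**
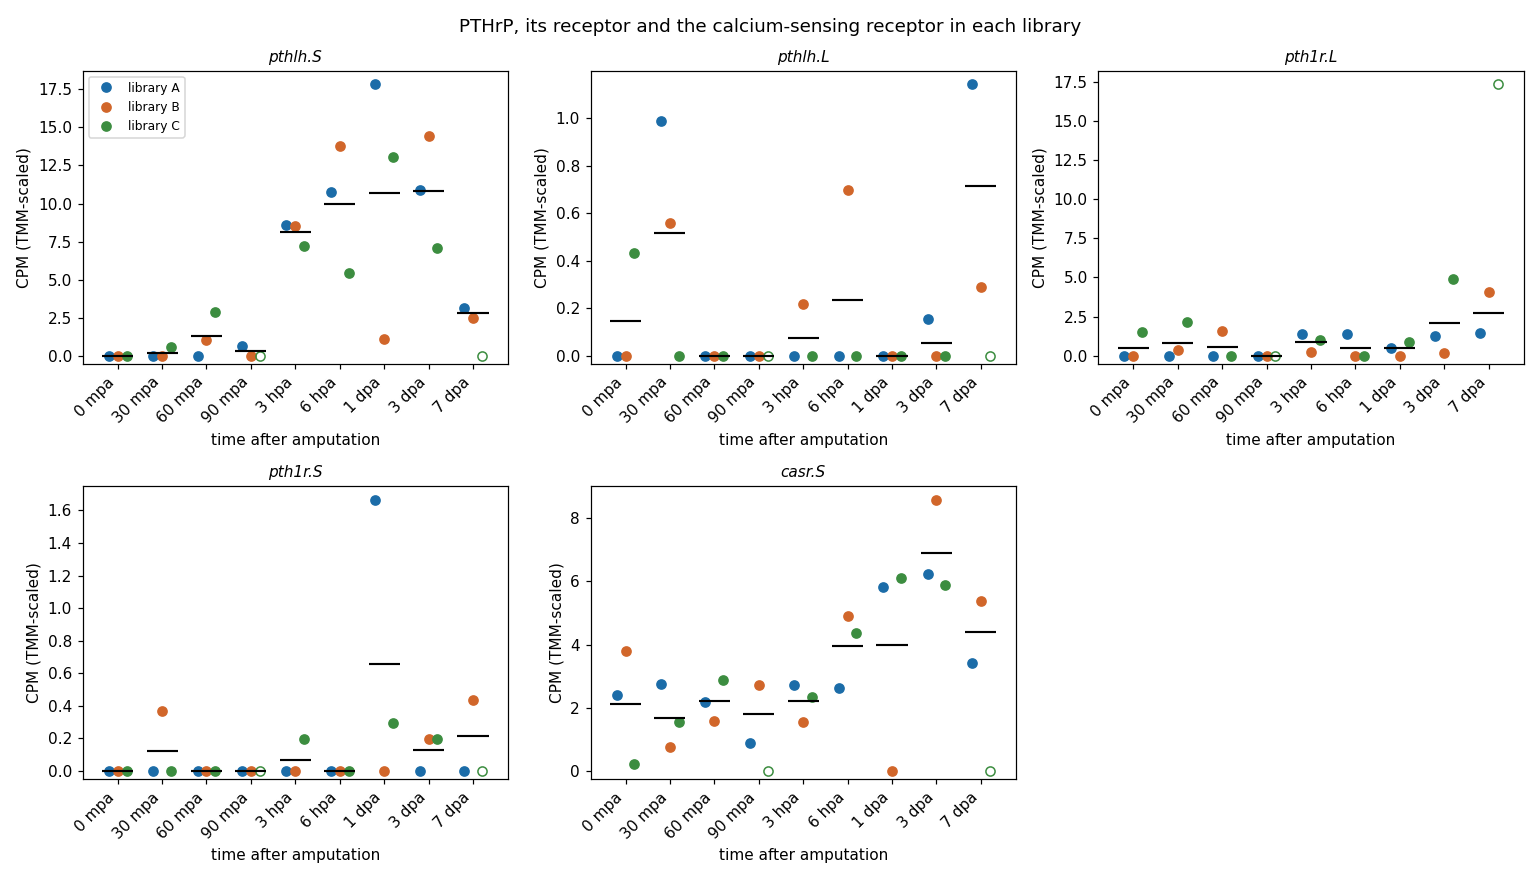
Levels of pthlh.S, pthlh.L, pth1r.L, pth1r.S and casr.S in CPM (vertical axes, each panel with its own scale) at the 9 times (horizontal axes); points are libraries, open points are the shallow libraries 90 mpa C and 7 dpa C, and lines mark the mean of the other libraries. The pthlh.S libraries of 3 hpa lie between 7.23 and 8.59 CPM, while the single pth1r.L read of 7 dpa C corresponds to 17.3 CPM.

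On pthlh the copies were used the other way round from stc1, with 682 of 707 reads on pthlh.S. The .L share was 3.54% over all libraries, with an exact interval of 2.30% to 5.18%. At 1 dpa none of 200 reads lay on pthlh.L, with an exact upper bound of 1.83%. At 7 dpa 10 of 49 reads, or 20.4%, lay on pthlh.L, with an interval of 10.2% to 34.3%, and 8 of those 10 reads came from library A.

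The pthlh.L row failed the filter on low counts, with 25 reads in all. It had 8 reads at 30 mpa, a time at which pthlh.S had 3, against 2 reads at 0 mpa. The ratio of scaled reads was 3.27 at 30 mpa and 4.57 at 7 dpa over 0 mpa, with counting intervals of 0.653 to 31.6 and 0.974 to 42.9. Both intervals include 1, so no difference of pthlh.L was detectable at this depth.

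The PTH and PTHrP receptor was sparse throughout. Reads of pth1r.L numbered 128 in all libraries together, and its joint test gave an adjusted p of 0.506 in edgeR. At 3 dpa it stood at 1.25, 0.195 and 4.91 CPM, against 0, 0 and 1.51 CPM at 0 mpa, so the groups overlapped. At 7 dpa it had 10 and 28 reads in A and B, or 1.43 and 4.06 CPM, and 1 read in the shallow C.

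The log2 fold change of pth1r.L was 1.98 ± 1.67 at 3 dpa (adjusted p = 0.560) and 2.98 ± 1.88 at 7 dpa (adjusted p = 0.454) in edgeR, neither of them called. At 90 mpa pth1r.L had no read. Its copy pth1r.S had 20 reads, 12 of them at 1 dpa, where 10 lay in library A, and it failed the filter. Of the reads on both copies 86.5% lay on pth1r.L, with an exact interval of 79.9% to 91.5%.

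The calcium-sensing receptor gene casr.S was found at every time. At 3 dpa it stood at 6.23, 8.58 and 5.89 CPM, against 2.40, 3.78 and 0.216 CPM at 0 mpa. These groups did not overlap, but the log2 fold change of 1.69 ± 1.00 had an adjusted p of 0.341 in edgeR's test. At 1 dpa casr.S stood at 5.83 and 6.10 CPM in A and C and had no read in B, the library of low complexity. The joint test gave an adjusted p of 0.697, and the means of 0 mpa, 30 mpa, 60 mpa, 90 mpa and 3 hpa lay between 1.20 and 2.21 CPM. The ratio of summed scaled reads of casr.S at 3 dpa over 0 mpa was 3.36, with a counting interval of 2.18 to 5.36, which covers counting error and not the spread between libraries.

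**Figure D4:**
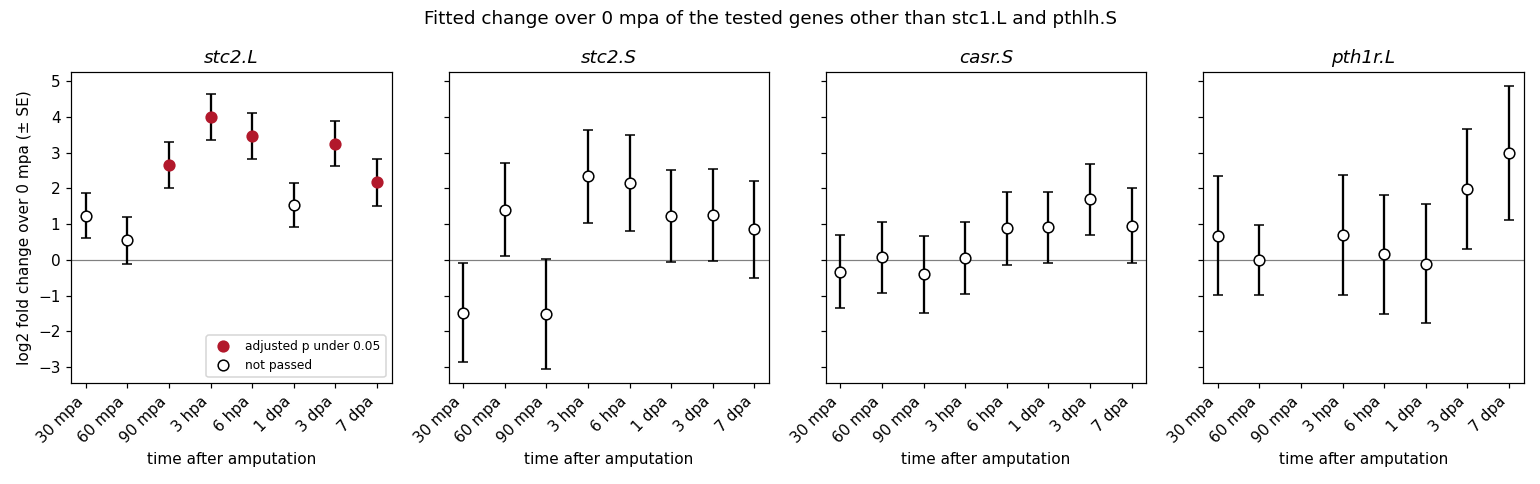
Log2 fold change over 0 mpa (vertical axes) with its standard error at the 8 later times (horizontal axes) for stc2.L, stc2.S, casr.S and pth1r.L; red points have an edgeR adjusted p under 0.05, and no point is drawn for pth1r.L at 90 mpa, where it had no read. The 5 red points, at 90 mpa, 3 hpa, 6 hpa, 3 dpa and 7 dpa, all belong to stc2.L, with the highest, 3.99, at 3 hpa.

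Over the steps between neighbouring times, none of 28 gene and step pairs was called by edgeR or by DESeq2, and 6 had an unadjusted p under 0.05 in edgeR. All 6 were of stc2.L or stc2.S. Of all such pairs in the table, 0.345% were called after adjustment. The share of all pairs with an unadjusted p under 0.05 was not computed, so the 6 have no background beside them. Leaving out the 5 shallow or low-complexity libraries together (library B of 1 and 3 dpa and library C of 90 mpa, 6 hpa and 7 dpa) gave 1 called step, stc2.L at 90 mpa over 60 mpa, with a log2 fold change of 2.03 ± 0.53 (adjusted p = 0.0493 in edgeR).

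Genes of the wider calcium, phosphate and PTHrP pathways were read from 8 lists. Of 174 list genes in the table, 149 could be tested and 50, or 33.6%, were called in the joint test, beside 15.8% of all genes. The lists were drawn up with earlier results of these data known, so the share is a description. From the list of other calcium and phosphate hormones and related genes, only adm.L, which encodes adrenomedullin, and kl.L could be tested. Neither of these 2 was called, and no result is given for the other hormones of that list. The co-receptor gene klotho, kl.L, had 9, 13 and 20 reads at 3 hpa, against none at 0 mpa, a level at least 12.7-fold higher, but its joint adjusted p was 0.217 in edgeR.

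Of 8 hormone receptor genes, 1, or 12.5%, was called jointly, beside 15.8% of all genes. That gene was ramp1.L, which encodes a partner protein of calcitonin-family receptors. It fell to 4.56 ± 2.85 CPM at 3 dpa and 1.82 ± 1.59 CPM at 7 dpa (2.73 CPM without the shallow C), against 37.6 ± 13.0 CPM at 0 mpa (SD, n = 3 each). The log2 fold changes of ramp1.L were -3.05 ± 0.65 and -3.79 ± 0.78 (adjusted p = 0.00108 and 0.000615 in edgeR). The vitamin D receptor copies vdr.L and vdr.S had joint adjusted p-values of 0.772 and 0.738 and were not called.

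Among 7 vitamin D enzyme genes 1, or 14.3%, was called jointly, beside 15.8% of all genes. That gene was cyp2r1.L, whose product adds the first hydroxyl group to vitamin D in mammals. At 1 dpa it stood at 43.5 ± 20.3 CPM and at 3 dpa at 40.7 ± 12.3 CPM, against 9.63 ± 2.23 CPM at 0 mpa. It rose by log2 fold changes of 2.17 ± 0.45 and 2.07 ± 0.45 (adjusted p = 0.00111 and 0.000909 in edgeR). The list's median log2 fold change was 1.21 at 1 dpa and 2.07 at 3 dpa, beside -0.01 and 0.05 over all genes. At 3 dpa this median is the value of cyp2r1.L itself, the only gene of the list called at either time.

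Downstream of the PTH receptor, 7 of 37 genes of cyclic AMP and phospholipase signalling were called jointly. That share of 18.9% was near the 15.8% of all genes. The 2 strongest were both copies of crem, a transcriptional modulator whose expression cyclic AMP induces in mammals. At 3 hpa crem.L stood at 46.8 ± 10.1 CPM, against 0.500 ± 0.669 CPM at 0 mpa, a log2 fold change of 6.53 ± 0.81 (adjusted p = 1.94e-08 in edgeR). For crem.S, with 3 reads at 0 mpa, the ratio of scaled reads was 131 at 3 hpa, with a counting interval of 44.4 to 636. Both copies were higher at 60 mpa than at 0 mpa, with adjusted p-values of 5.15e-06 for crem.L and 6.05e-07 for crem.S in edgeR. A link between crem and PTHrP was not tested. At 30 mpa crem.S was called (adjusted p = 0.0101 in edgeR) and crem.L was not (0.409). That call of crem.S was lost without 0 mpa A (0.0897), 0 mpa B (0.154) or 30 mpa C (0.0960), and in the 6 libraries of these times alone (0.152).

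The third named gene of that list, creb5.L, a relative of the cyclic AMP responsive factors, stood at 36.6 ± 29.0 CPM at 6 hpa, against 6.52 ± 1.70 CPM at 0 mpa. Its rise of 2.42 ± 0.56 had an adjusted p of 0.00378 in edgeR, but library C held 69.8 CPM, against 17.2 and 22.6 CPM in A and B. Without C the mean at 6 hpa was 19.9 CPM and the log2 fold change 1.61, with an adjusted p of 0.179. The G protein, adenylyl cyclase and protein kinase A genes of the list, gnas.L, gnas.S, adcy9.L, prkaca.L and prkar1a.L among them, were not called. At 3 hpa 4 of the 37 genes were higher and none lower, beside 3.43% of all genes called at that time, and the median log2 fold change was 0.32, beside -0.02 over all genes.

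Calcium channels, pumps and binding proteins gave 5 joint calls among 18 genes, or 27.8%, beside 15.8% of all genes. The epithelial calcium channel gene trpv5.L fell to 2.53 ± 2.82 CPM at 7 dpa (3.80 CPM without the shallow C), against 23.3 ± 5.57 CPM at 0 mpa, a log2 fold change of -2.63 ± 0.52 (adjusted p = 0.000227 in edgeR). Its joint adjusted p was 0.00138, and 0.107 without 7 dpa B. Of the L-type channel genes, cacna1d.L had 4 reads at 3 dpa, against 61 at 0 mpa (log2 fold change -4.11 ± 1.13, adjusted p = 0.0126 in edgeR). This call was lost without 3 dpa A (0.0699) or 3 dpa B (0.0595), and its joint adjusted p was 0.0778 without the 5 shallow or low-complexity libraries. In contrast, cacna1c.L stood at 30.5 ± 26.6 CPM at 7 dpa (45.8 CPM without the shallow C), against 12.1 ± 4.81 CPM at 0 mpa (1.73 ± 0.55, adjusted p = 0.0375 in edgeR), a call that was lost, with adjusted p-values of 0.0542 to 0.235, when any 0 mpa library, 7 dpa A, 7 dpa B or 3 hpa C was left out. The skeletal muscle markers fell over the same days, as given above, and their part in these results was not tested.

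Of 13 phosphate transport and mineral genes 5, or 38.5%, were called jointly, beside 15.8% of all genes. The sodium-dependent phosphate transporter gene slc20a1.L reached 231 ± 28.0 CPM at 3 hpa and 182 ± 40.4 CPM at 6 hpa, against 36.5 ± 5.31 CPM at 0 mpa. It rose by 2.66 ± 0.36 and 2.32 ± 0.36 on the log2 scale (adjusted p = 1.82e-07 and 5.91e-06 in edgeR), and at 1 dpa its difference of 0.55 ± 0.35 was not called. Its copy slc20a1.S stood at 176 ± 10.9 CPM at 3 hpa, against 68.7 ± 12.1 CPM at 0 mpa. That rise of 1.36 ± 0.40 had an adjusted p of 0.0417 in edgeR, and of 0.0505 to 0.204 when any 0 mpa, 60 mpa or 3 hpa library, 30 mpa B, 1 dpa C, 3 dpa C, 7 dpa A or 7 dpa B was left out. It was 0.0583 with RLE scaling and 0.0619 in DESeq2.

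Matrix Gla protein, an inhibitor of mineral deposition in mammals, is encoded by mgp.L, which had no read from 0 mpa to 1 dpa. At 3 dpa it had 12, 21 and 23 reads and at 7 dpa 64, 50 and 0 reads. It was at least 14.3-fold higher at 3 dpa and at least 34.7-fold higher at 7 dpa than at 0 mpa. The joint adjusted p of mgp.L was 8.65e-06 in edgeR and 0.902 in DESeq2, and without any 1 of the 0 mpa libraries its adjusted p was 0.0890 to 0.0953 at 3 dpa and 0.0525 to 0.0561 at 7 dpa. It was 0.0530 at 3 dpa without 3 dpa C and 0.0557 at 7 dpa without 7 dpa A. The copy mgp.S, also called jointly (adjusted p = 0.0164 in edgeR), had 107, 10 and 50 reads at 3 dpa, against 12, 14 and 8 at 0 mpa. With both copies summed, the log2 fold change of mgp was 2.22 at 3 dpa and 2.84 at 7 dpa, and neither was called (adjusted p = 0.112 and 0.0516 in edgeR).

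Growth plate partners of PTHrP were called most often in the joint test, with 20 of 38 genes, or 52.6%, beside 15.8% of all genes. At 3 dpa 8 were higher and 1 lower than at 0 mpa, and at 7 dpa 5 were higher and 4 lower, beside 9.22% and 7.94% of all genes called in either direction at these times. The median log2 fold change of the 38 was 0.67 at 3 dpa and 0.97 at 7 dpa, beside 0.05 and -0.01 over all genes. The Indian hedgehog copies ihh.L and ihh.S failed the filter on low counts, with highest time means of 0.845 and 3.38 CPM. Of the same list, ptch1.L and ptch1.S were not called (joint adjusted p = 0.410 and 0.622 in edgeR). Other hedgehog pathway genes of the list, gli1.S, gli3.L and smo.L, were called (joint adjusted p = 0.0161, 0.00328 and 0.0276 in edgeR). Their copies gli1.L, gli3.S and smo.S were not (0.722, 0.184 and 0.755). Another hedgehog ligand gene, shh.L, reached 96.4 ± 11.0 CPM at 3 dpa and 123 ± 107 CPM at 7 dpa, against 26.5 ± 3.09 CPM at 0 mpa. The 7 dpa mean of shh.L was 184 CPM without the shallow library C, which had no read. It rose by 1.86 ± 0.43 and 2.51 ± 0.44 (adjusted p = 0.00190 and 3.63e-05 in edgeR).

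The hedgehog effector gene gli2.L was highest earlier, at 268 ± 11.3 CPM at 3 hpa, against 62.1 ± 9.94 CPM at 0 mpa (2.11 ± 0.36, adjusted p = 3.58e-05 in edgeR). Sox9.L, encoding the master regulator of cartilage, reached 351 ± 53.0 CPM at 3 dpa, against 87.7 ± 17.5 CPM at 0 mpa (2.00 ± 0.36, adjusted p = 4.83e-05 in edgeR). Markers of notochord and cartilage, a list that also holds shh, summed to 5420 to 6280 CPM at 3 dpa, against 8690 to 10700 CPM at 0 mpa. The largest counts in that sum were those of col2a1.L and col2a1.S, with 50288 and 64366 reads at 0 mpa. Not all markers went with the sum. Reads of acan.L, not.L and not.S numbered 1, 1 and 0 at 0 mpa and 276, 646 and 2501 in all libraries together. The mean of acan.L was highest at 3 dpa, at 9.77 CPM. The part of these markers in these results was not tested.

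Stanniocalcins are induced by low oxygen and by amino acid stress in mammalian cells. Of 27 genes of such responses 11, or 40.7%, were called jointly, beside 15.8% of all genes. Among those not called were asns.L, atf4.L, atf4.S, hif1a.L and vegfa.L. Their joint adjusted p-values were 0.657, 0.308, 0.979, 0.755 and 0.725 in edgeR. The 11 called were both copies of atf3, slc2a1 and epas1, with chac1.L, ddit3.S, ddit4.L, pfkfb3.S and vegfa.S. Joint adjusted p-values were 1.02e-07 for pfkfb3.S, 2.00e-06 for epas1.S, 0.000227 for epas1.L and 0.0343 for vegfa.S in edgeR. The stress factor gene atf3.S rose within 30 minutes, to 37.2 ± 11.4 CPM at 30 mpa, against 2.53 ± 1.82 CPM at 0 mpa (3.89 ± 0.46, adjusted p = 1.25e-08 in edgeR). It was highest at 60 mpa, at 162 ± 13.0 CPM, and atf3.L was highest at the same time, at 280 ± 50.1 CPM. The glucose transporter gene slc2a1.L was highest at 3 hpa, at 494 ± 5.06 CPM, against 38.2 ± 7.52 CPM at 0 mpa (3.69 ± 0.39, adjusted p = 8.28e-11 in edgeR). At 3 dpa slc2a1.L stood at 53.9 ± 12.6 CPM and its difference from 0 mpa was not called (adjusted p = 0.461 in edgeR), while atf3.L was higher than at 0 mpa by 2.68 ± 0.44 (adjusted p = 8.02e-06) and atf3.S by 1.56 ± 0.47 (adjusted p = 0.0215). The call of atf3.S at 3 dpa was lost without 0 mpa A (0.0695), 0 mpa C (0.200) or 3 dpa A (0.174), and in the 6 libraries of these times alone (0.316). At 3 dpa 3 of the 27 genes were higher and 2 lower, beside 9.22% of all genes called, and the median log2 fold change was -0.22, beside 0.05 over all genes.

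Leukocyte markers summed to 373 to 506 CPM at 3 hpa and 546 to 865 CPM at 6 hpa, against 169 to 257 CPM at 0 mpa. This sum mostly follows mpo.L, which had 2164 reads at 0 mpa, where the next marker, coro1a.L, had 194. Epidermis markers summed to 2420 to 2580 CPM at 3 hpa and 2490 to 3290 CPM at 6 hpa, against 1640 to 1660 CPM at 0 mpa. At 3 and 6 hpa both sums were thus above 0 mpa while stc1.L, stc2.L and pthlh.S were high, and their part in those levels was not tested. At 3 dpa, when stc1.L was highest, the leukocyte markers summed to 316 to 491 CPM, above every 0 mpa library. The epidermis markers then summed to 1450 to 1480 CPM, below every 0 mpa library. At 7 dpa, when stc1.L was still high in A and B, leukocyte markers summed to 121 to 198 CPM and epidermis markers to 641 to 1420 CPM.

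The genes whose pattern over the libraries was most like that of stc1.L were cdc42ep4.S, sall1.L, lox.S, slc7a5.L and irs4.S. Likeness is Pearson's r of log2(CPM + 1) over the 25 libraries with at least 1000000 counts, among 17642 tested genes with a proper name, and it was 0.85, 0.84, 0.84, 0.83 and 0.82 in that order. By r over the means of the 9 times these genes ranked 6, 13, 64, 29 and 28, so which genes are most alike depends on the measure. The values share libraries and depth, so r is a description. Sall1.L, a zinc finger factor of limb and organ development, stood at 125 ± 5.40 CPM at 3 dpa and 56.3 ± 4.21 CPM at 3 hpa, against 15.4 ± 4.79 CPM at 0 mpa. Lox.S, which encodes the collagen cross-linking enzyme lysyl oxidase, stood at 85.3 ± 7.79 CPM at 3 dpa, against 22.5 ± 3.97 CPM at 0 mpa. Unlike stc1.L, lox.S was higher still at 7 dpa, at 104 ± 4.64 CPM (n = 2, without the shallow C).

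Among the genes most like pthlh.S were inhba.L, lamb3.S, furin.L and pkp2.L, each with an r of 0.87. Inhba.L, which encodes an activin subunit, stood at 22.4 ± 8.48 CPM at 3 dpa, against 0.816 ± 1.06 CPM at 0 mpa. Lamb3.S encodes a laminin chain of the epidermal basement membrane. At 1 dpa lamb3.S stood at 217 ± 67.3 CPM, against 0.0840 ± 0.146 CPM at 0 mpa (SD, n = 3 each). Between stc1.L and pthlh.S themselves r was 0.74 and Spearman's rho 0.73 over the same 25 libraries. The group was proposed because both genes had more reads at the same later times than at 0 mpa, which favours a positive r. These values therefore cannot decide whether the genes share a course.

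**Figure D5:**
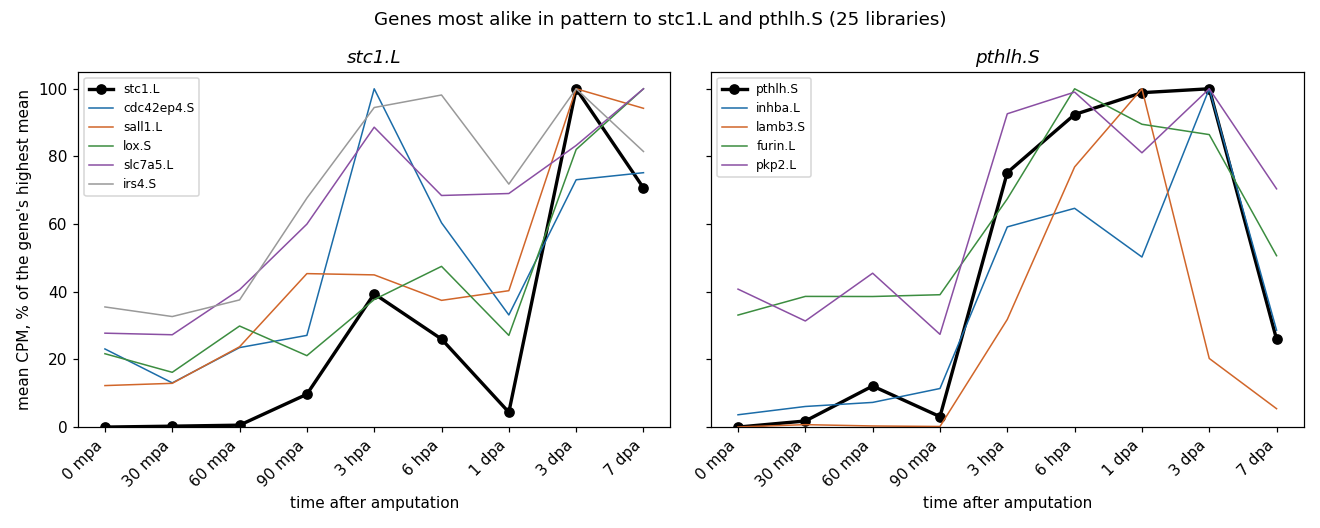
Mean level at each of the 9 times (horizontal axes) as a percent of the gene's own highest mean (vertical axes), over the 25 libraries with at least 1000000 counts, for stc1.L with the 5 genes most like it and pthlh.S with 4 of the 5 most like it. The mean of stc1.L peaks at 3 dpa and is low at 1 dpa, whereas that of pthlh.S is near its peak from 3 hpa to 3 dpa and low at 7 dpa.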

How the data were processed

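Every value here was computed from the table of raw counts per gene that the authors deposited for the 27 libraries; their table of normalized values was not used. Per the labels' protocols, libraries were made from 100 ng of total RNA with a Lexogen SENSE kit and read on a NextSeq 500 in pairs of 76 bases. Tools named in the submitters' processing notes, without roles, are R 4.1.0, DESeq2 1.32.0, HTSeq 0.6.1p1 and STAR 2.7.9a. For the genome build, annotation and strand setting nothing is given in the sources used here; overlapping or antisense genes cannot be told apart, and no coordinates are printed. Of 29776 symbols, 29771 matched NCBI's RefSeq gene table of Xenopus laevis, including all 9 members.

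Counts were tested with edgeR 4.0.16 in R 4.3.3 (quasi-likelihood, robust, TMM scaling) in 1 fit of all 27 libraries with 9 times as groups. The filter filterByExpr kept 22268 genes and dropped 7508, among them stc1.S, pthlh.L and pth1r.S; a gene could pass through the time where it was high, so counts over passing members support nothing. P-values were adjusted by Benjamini-Hochberg within each comparison over all genes tested, with a threshold of 0.05. Log2 fold changes used a prior count of 0.125, and SE is the absolute fold change over the root of F, which is approximate for changes near 0. CPM are counts scaled to 1000000 with TMM factors. Against a group without reads, folds use a floor of 3 counts over the group; with 1 to 3 reads, ratios of summed scaled reads carry exact 95% counting intervals. Intervals and floors cover counting error only. The fit was tested on simulated data, where fold sizes were recovered without marked bias. Many of the smaller planted changes were not called, so a gene that was not called may still differ. Changes were planted only in genes with more reads than casr.S, stc2.S or pth1r.L had, at the same spread for all. The simulation therefore cannot tell how well changes in these genes are recovered.

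The members and gene lists were chosen with earlier results of these data known. Named from each list were up to 3 genes with the smallest joint p among those called with at least 5 CPM at some time, or else the gene with the smallest p. For stc1.L and pthlh.S, the 5 genes with the highest r were taken; 1 of those for pthlh.S is not reported here. Genes named beyond this rule were chosen after their values were seen. They are mgp.S, vdr, gnas, adcy9, prkaca, prkar1a, ihh, ptch1, gli1, gli3, smo, adm.L, asns.L, atf4, hif1a.L, vegfa, chac1.L, ddit3.S, ddit4.L, epas1, pfkfb3.S and slc2a1.S. The marker genes acan.L, col2a1, not, mpo.L and coro1a.L were also named after their values were seen. DESeq2 1.42.0, RLE scaling, other filters, summed copies and left-out libraries were tried as alternatives.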

Additional observations from a re-analysis of the deposited data

How the results depend on the processing

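The 1 call of the joint test among the other members, stc2.L, held under all 34 alternatives tried, including RLE scaling, DESeq2, no filter on low counts and a prior count of 2. Member calls against 0 mpa, 5 in the main fit, ranged from 3 to 6 when 1 library was left out, with 3 without 0 mpa A, and calls among the pathway genes ranged from 40 to 56, beside 50. Calls over the steps stayed at 0 whenever 1 library was left out and numbered 1 without the 5 shallow or low-complexity libraries. With the library letter as a replicate block there were 5 member calls against 0 mpa and 51 pathway genes called. The labels do not say what the letters mark. Of 108 same-letter pairs, 8 had deviations correlated over 0.1, with a mean r of 0.01 (range -0.15 to 0.20). What the letters stand for cannot be told from these values. The share of all genes called in the joint test ranged from 12.9% without 7 dpa A to 27.2% without the 5 libraries, beside 15.8%. RLE scaling moved the median log2 fold change of all genes at 6 hpa to -0.16, beside -0.02, changed no direction of a called gene and ended the call of slc20a1.S at 3 hpa (0.0583 in edgeR). Joint tests of the named genes and their called fold changes gave 2962 values under alternatives. Of these, 2865 kept their side of the threshold and, for fold changes, their direction. The call was lost in 96, 6 of them of stc2.L, and 0 reversed. The cause was not tested. Many of the values leave out a library of neither compared time, where little can change. Joint tests not called in the main fit count as kept where they stayed so. The share kept is therefore no measure of robustness. That tally leaves out fold changes not called in the main fit, among which stc2.L at 1 dpa passed without 1 dpa B (adjusted p = 0.0439 in edgeR) and without the 5 libraries (0.0120). With copies summed, stc2 passed jointly and at 5 times. Depth limits stc1.S, pthlh.L, pth1r.L and pth1r.S, whose reads are too few for a fold of any precision.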
